A study of Mus musculus with 16 samples.

Results

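The libraries described here are the S100a5-low libraries of a sorted-cell experiment on the mouse olfactory mucosa, compared between odor-exposed and vehicle mice. S100a5, which encodes an EF-hand protein made by olfactory sensory neurons, drives the reporter of S100a5-tauGFP mice, in which green fluorescent protein (GFP) marks neurons that carry S100a5. In each of 8 pools of mice the sort gave a pair of libraries, and the library with the lower S100a5 value was taken, which selected 8 of 16 libraries, 4 from odor pools and 4 from vehicle pools. The libraries were thus chosen by their measured S100a5 level, and S100a5 is described without a test.

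The mice were C57BL/6 animals of both sexes, 7 to 12 weeks old, and each pool combined cells of 3 of the 24 mice. All mice spent 40 h alone in chambers ventilated with clean air at 3.1 L/min. From 26 h on, odor mice received pulses of a mixture of isoamyl acetate, a fruity ester, and whiskey lactone, an oak-derived lactone, for 10 s every 20 min, and vehicle mice received filtered air on the same schedule. RNA of the sorted cells (50 to 100 ng) was measured on Affymetrix arrays, 1 array per library, and values are given on the deposited log2 scale, whose exact construction is not given in the sources used here. Each pool is thus 1 replicate, and precision is limited by having 4 arrays per group.

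The labels contradict each other in 16 of 16 samples, where the title names one fraction and the cell type tag the other. Of the 8 libraries with lower S100a5, 7 are titled GFP+ (and tagged GFP-) and 1, from vehicle pool 3, is titled GFP- (and tagged GFP+). Its partner in vehicle pool 3 is the S100a5-high library titled GFP+, so this pool goes against the labels of the other 7 pools. For some results the value without it is also given, and values given alone can shift without it too. Libraries are named below by treatment and pool number.

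S100a5 was 15.39, 15.11, 15.05 and 15.55 in the S100a5-low libraries of odor pools 1 to 4, and 14.59, 14.91, 14.99 and 15.47 in those of vehicle pools 1 to 4. The S100a5-high partners lay between 16.04 (odor pool 1) and 16.66 (odor pool 2). The gap within a pool ran from 0.653 in odor pool 1 to 1.86 in vehicle pool 1. The highest S100a5-low library (15.55, odor pool 4) lay below the lowest S100a5-high library (16.04, odor pool 1), although the rule compared libraries only within a pool. S100a5-low means less S100a5, not none: the lowest value, 14.59, compares with a median of 5.46 over the negative control probe sets. Omp, the olfactory marker protein of mature neurons, was between 18.44 and 18.62 in the 8 S100a5-low libraries and between 18.48 and 18.68 in the 8 S100a5-high libraries. The mean of 14 mature neuron genes, Omp among them, was 16.37 to 16.67 in the S100a5-low libraries and 16.74 to 16.89 in the S100a5-high libraries, so it was lower in the former.

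Each mature olfactory sensory neuron expresses mainly 1 odorant receptor gene. Odor binding raises cAMP through the G protein Golf and adenylyl cyclase 3, which opens a cyclic nucleotide-gated channel and lets calcium in. Sustained activity changes the transcription of S100a5 and of adhesion genes such as Kirrel2 that sort axons in the olfactory bulb. A sort by an activity reporter asks which receptor transcripts leave the less active fraction and enter the more active one after an odor. A gate for cells without reporter can also take in other cells of the mucosa, such as supporting cells, gland cells, progenitors and blood cells.

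The promoters of S100a5 and of 4 genes whose odor and vehicle libraries did not overlap are shown first, as the 250 bases before the annotated start (RefSeq). They can so be seen next to that of the gene carrying the reporter. Of the 4, Pcdh10 and Arid5a passed the test on 16 libraries described below, and Kirrel2 and Lrrc3b did not. Camk2n1 and Olfr221, which also passed there, are not shown, and Camk2n1 had no promoter entry in the sources used here. Capitals mark TGACG, the half-site of a cAMP response element, searched on both strands.
S100a5 (GRCm38.p6, chr3:90608272-90608521, plus strand): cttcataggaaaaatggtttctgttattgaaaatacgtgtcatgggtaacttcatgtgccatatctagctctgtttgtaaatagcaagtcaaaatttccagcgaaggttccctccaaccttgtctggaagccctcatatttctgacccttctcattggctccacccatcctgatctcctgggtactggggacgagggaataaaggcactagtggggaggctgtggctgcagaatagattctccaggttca
Pcdh10 (GRCm38.p6, chr3:45378148-45378397, plus strand): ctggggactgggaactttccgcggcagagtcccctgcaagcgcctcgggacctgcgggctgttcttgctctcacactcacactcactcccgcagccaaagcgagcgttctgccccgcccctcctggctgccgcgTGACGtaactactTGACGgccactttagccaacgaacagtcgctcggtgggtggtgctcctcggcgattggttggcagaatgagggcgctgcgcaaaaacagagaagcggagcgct
Arid5a (GRCm38.p6, chr1:36307483-36307732, plus strand): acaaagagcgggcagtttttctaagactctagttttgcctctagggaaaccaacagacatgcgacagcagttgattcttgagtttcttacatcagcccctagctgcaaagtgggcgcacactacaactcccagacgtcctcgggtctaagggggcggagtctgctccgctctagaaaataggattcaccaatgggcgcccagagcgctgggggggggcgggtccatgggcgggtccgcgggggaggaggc
Kirrel2 (GRCm38.p6, chr7:30457516-30457765, minus strand): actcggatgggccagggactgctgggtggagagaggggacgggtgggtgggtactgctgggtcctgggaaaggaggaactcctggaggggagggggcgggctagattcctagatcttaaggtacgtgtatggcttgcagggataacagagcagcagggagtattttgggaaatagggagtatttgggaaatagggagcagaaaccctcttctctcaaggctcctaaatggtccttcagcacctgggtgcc
Lrrc3b (GRCm38.p6, chr14:15438988-15439237, minus strand): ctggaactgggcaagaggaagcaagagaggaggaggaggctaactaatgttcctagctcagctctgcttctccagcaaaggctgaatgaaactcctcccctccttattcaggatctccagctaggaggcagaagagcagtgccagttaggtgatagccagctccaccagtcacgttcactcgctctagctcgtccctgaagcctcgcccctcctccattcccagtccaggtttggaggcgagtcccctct
TGACG occurred in the Pcdh10 window only, starting 116 and 103 bases before the start, and 17.8% of 32851 mouse promoter windows of this length hold it. None of the 5 windows held a full cAMP response element (TGACGTCA, which contains the half-site; 1.55% of all windows), an AP-1 site (TGACTCA, 4.46%), an E-box (CACGTG, 6.02%) or an EGR site (GCGGGGGCG, 2.57%). These letter matches are descriptions of the windows only.

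In the S100a5-low libraries, 4 genes passed the test of odor against vehicle when all 16 libraries shared 1 estimate of the spread, and 0 passed when the 8 S100a5-low libraries were fitted alone. The 4 were Pcdh10, a protocadherin of cell-cell adhesion, and Camk2n1, an inhibitor of calcium/calmodulin-dependent kinase II, both higher after odor, and Arid5a, an AT-rich DNA and RNA binding protein, and the receptor Olfr221, both lower. Pcdh10 differed by 2.12 ± 0.260 (SE) on the log2 scale, Camk2n1 by 1.04 ± 0.165, Arid5a by -1.03 ± 0.144 and Olfr221 by -2.17 ± 0.415, each with 4 odor and 4 vehicle libraries that did not overlap. None of them, and 0 of 19505 genes in all (0%), passed limma's test on these 8 libraries with Benjamini-Hochberg adjustment at 0.05. At an unadjusted p under 0.05 there were 1136 genes (5.82%), 593 higher (3.04%) and 543 lower (2.78%) after odor. When the spread was estimated from all 16 libraries in 1 model of 4 groups, the same differences passed for exactly these 4 genes (0.0205%), 2 higher and 2 lower. The SEs above are those of the 8-library fit. The 16-library model takes both fractions to vary alike, which was not tested. For Olfr221 the SD was 0.763 (odor) and 0.726 (vehicle) in the S100a5-low libraries. It was 0.203 and 0.325 in the S100a5-high libraries, and the SE fell to 0.349 in the 16-library model. In sorted pools, fewer cells of a type and less RNA per cell cannot be told apart.

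Groups of 4 that do not overlap were found for 343 genes with odor higher (1.76%) and 359 with odor lower (1.84%), 702 in all (3.6%), and these shares are the background against which the gene groups below are read. The median difference over all genes was -0.01, with 5th and 95th percentiles of -0.401 and 0.383.

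Pcdh10 was 9.86, 9.85, 10.65 and 10.44 in odor pools 1 to 4 and 7.64, 8.67, 8.17 and 7.83 in vehicle pools 1 to 4. All 4 odor libraries lay above the vehicle libraries, with a gap of 1.18 between the groups. The adjusted p (limma) was 0.135 on 8 libraries and 0.0121 on 16, and over all alternatives for this gene it ran from 0.000354 to 0.993. In the 16-library model Pcdh10 passed in 5 of 8 fits that left out 1 pool. In the S100a5-high libraries, where 3 genes passed (0.0154%; Pcdh10, Camk2n1 and Olfr221), the difference was 2.62 (adjusted p = 0.00303, limma). The per-pool test of low against high gave -0.49 ± 0.22 (adjusted p = 0.999, limma).

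Camk2n1 was 8.83, 8.71, 9.29 and 9.12 in odor pools 1 to 4 and 7.86, 7.97, 7.85 and 8.12 in the vehicle pools. Its vehicle libraries were the more tightly grouped, within 0.27 of each other, and each odor library was above them. The adjusted p (limma) was 0.465 on 8 libraries and 0.0336 on 16 (0.0336 to 0.993 over its alternatives). Of 8 fits of the 16-library model that left out 1 pool it passed in 1, that without odor pool 2 (0.0473), and missed in the one without vehicle pool 3 (0.0551). In the S100a5-high libraries the odor difference was 2.05. The difference of odor effects, S100a5-low minus S100a5-high of the same pool, was -1.01 ± 0.20, at an unadjusted p of 0.0004 and an adjusted p of 0.999 (limma), so the smaller size in the S100a5-low libraries did not pass.

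Arid5a was 5.73, 5.77, 5.56 and 5.58 in odor pools 1 to 4 and 6.48, 6.89, 6.65 and 6.73 in the vehicle pools. Both groups were narrow and they stood 0.72 apart at their closest. The adjusted p (limma) was 0.215 on 8 libraries and 0.0336 on 16 (0.0336 to 0.993 over its alternatives), and the gene passed in 0 of 8 fits of the 16-library model that left out 1 pool. Its odor libraries lay close to the median of the 5222 negative control probe sets (5.46). The S100a5-high libraries gave -0.36 for the same contrast, with an adjusted p of 0.85 (limma).

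**Figure D1:**
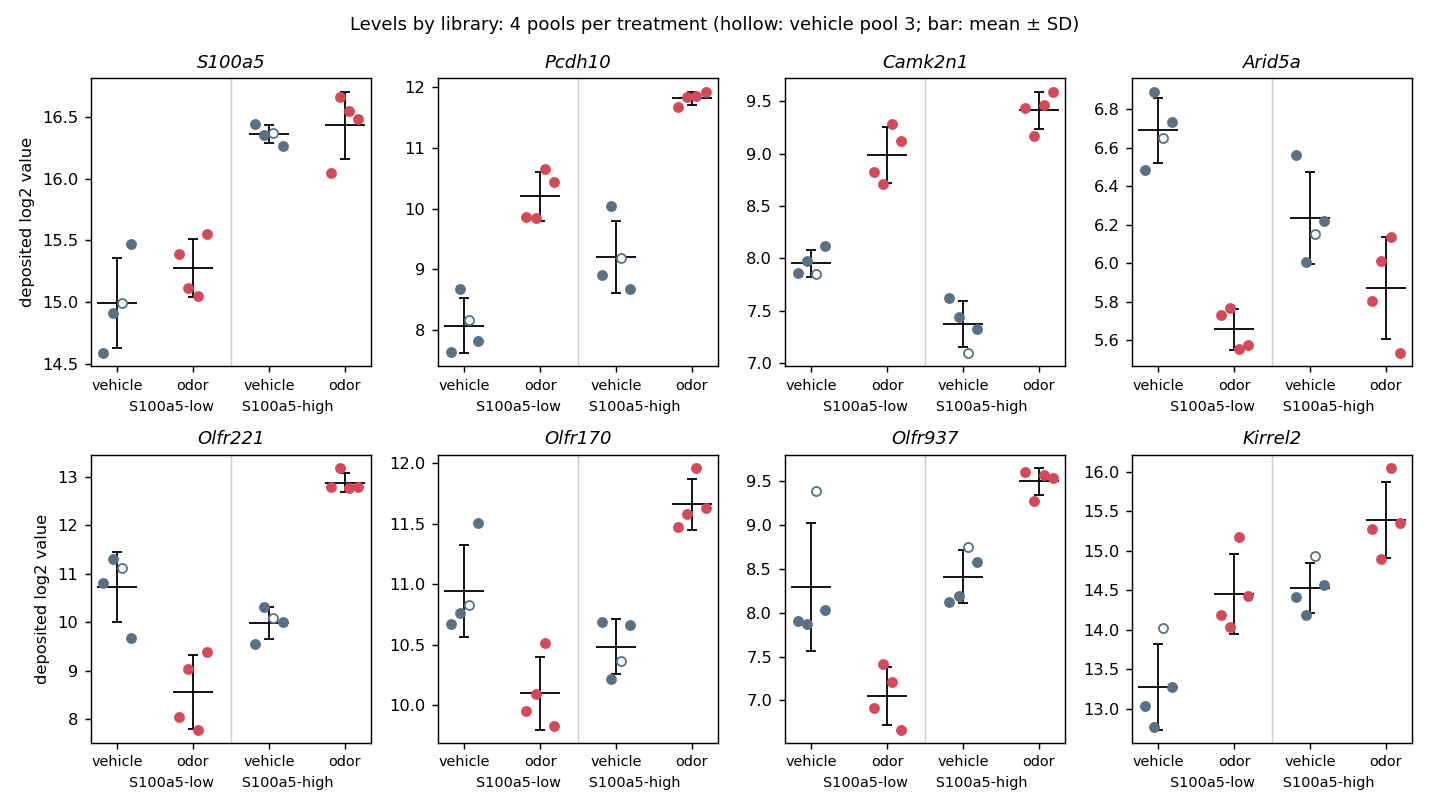
Deposited log2 values of 8 genes in each library, with S100a5-low libraries on the left of each panel and S100a5-high libraries on the right, vehicle in grey-blue and odor in red, vehicle pool 3 hollow; bars give the mean ± SD of 4 pools. In the S100a5-low libraries Pcdh10, Camk2n1 and Kirrel2 lie higher after odor and Arid5a, Olfr221, Olfr170 and Olfr937 lower, while S100a5 overlaps; the 3 receptors lie higher after odor in the S100a5-high libraries.

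Genes that olfactory neuron activity is known to raise were described as a list of 7, S100a5 left out because it chose the libraries. Of these, 0 passed the test on 8 libraries and 0 on 16. Means were higher after odor for 5 of 7 and lower for 2 of 7 (9269 and 10236 of 19505 over all genes). Without overlap between groups were 2 of 7, Kirrel2 and Lrrc3b, both with odor higher (1.76% of all genes). Earlier results of these data were known when the list was chosen, so this count is description and no support for the list. The median difference of the 7 was 0.20 (0.16 without vehicle pool 3), against -0.01 for all genes. The mean of the 7 genes was 11.83, 11.85, 12.21 and 11.94 in odor pools 1 to 4 and 11.50, 11.50, 11.80 and 11.67 in vehicle pools 1 to 4. The lowest odor library (11.83) and vehicle pool 3 (11.80) nearly met.

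Kirrel2, a homophilic adhesion protein of olfactory axons, was 14.19, 14.03, 15.17 and 14.43 in odor pools 1 to 4 and 13.04, 12.77, 14.02 and 13.27 in the vehicle pools. The groups barely parted, since odor pool 2 (14.03) lay next to vehicle pool 3 (14.02), the pool whose labels are crossed. Pool 3 was the highest and pool 2 the lowest library in both treatments. Without vehicle pool 3 the difference was 1.43 in place of 1.18 ± 0.304, in a fit that kept odor pool 3. The adjusted p of Kirrel2 was 0.741 on 8 libraries (limma). Lrrc3b, a leucine-rich repeat membrane protein, was 12.86, 12.54, 13.20 and 12.58 after odor and 11.42, 11.10, 12.45 and 11.63 in vehicle, a difference of 1.14 ± 0.275 with an adjusted p of 0.741 (limma). Pool 3 was again the highest and pool 2 the lowest in both treatments. The difference was 1.41 without vehicle pool 3, with odor pool 3 kept. In the 16-library model without vehicle pool 3, Lrrc3b passed. Plcxd3, a phospholipase C domain protein, had a difference of 0.27 ± 0.155 with overlapping groups. In the S100a5-low libraries the list lay 1.02 (median) below the S100a5-high libraries, with 3 of 7 members below all of them (2.2% of all genes were), which describes how the libraries were chosen.

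Genes of axon sorting and guidance counted 15 measured members. Of these, 3 had odor libraries above all vehicle libraries (Pcdh10, Kirrel2 and Sema7a), as did 1.76% of all genes. Kirrel2 also belongs to the activity list above, so the counts of both lists share it. A further 1 lay below (Nrp2, named after its values were seen), as did 1.84% of all genes. The list was chosen with earlier results of these data known, so these counts are description and no support for the list. The median difference was 0.03 (0.07 without vehicle pool 3). Sema7a, a membrane-anchored semaphorin, was 14.26, 14.02, 14.26 and 14.30 after odor and 13.62, 13.81, 13.67 and 13.78 in vehicle, a difference of 0.49 ± 0.136 that did not pass (adjusted p = 0.741, limma). Odor pool 2 was the lowest odor library and still lay above all vehicle libraries. Nrp2, a semaphorin coreceptor, was 11.33, 10.79, 11.22 and 11.18 after odor against 11.39, 11.93, 11.42 and 11.53, a difference of -0.44 ± 0.178 with an adjusted p of 0.836 (limma). Odor pool 1 and vehicle pool 1 were separated by only 0.06.

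Among regulators of calcium and cAMP signalling, 12 were measured and Camk2n1 was the only member whose groups did not overlap (3.6% of all genes). This list too was chosen with earlier results known, so the place of Camk2n1 in it is no support for the list. The list's median difference was 0.08. Camk2a, the alpha subunit of the kinase that Camk2n1 inhibits, differed by 0.34 ± 0.173, and Creb1, a cAMP-responsive transcription factor, by 0.34 ± 0.178; both overlapped between groups.

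Immediate early genes, which neurons and other cells switch on within minutes of stimulation, were split in direction. Of 27 measured, 10 had higher and 17 lower means after odor, the median difference was -0.06 (-0.17 without vehicle pool 3), and 0 passed. Fosb, an AP-1 subunit, was 12.66, 12.71, 12.87 and 12.48 after odor and 12.30, 11.86, 12.40 and 12.40 in vehicle, a difference of 0.44 ± 0.168 without overlap. A further 2 members were without overlap in the other direction, Jund (-0.46 ± 0.142) and Egr4 (-0.22 ± 0.142, named after its values were seen).
Maff, a small Maf factor, differed by -0.75 ± 0.214 with overlapping groups. Fos itself was 15.73, 15.36, 14.89 and 14.27 after odor and 15.70, 15.32, 14.62 and 14.98 in vehicle, and Egr1 was 14.16, 14.25, 13.77 and 13.41 against 14.20, 13.63, 14.02 and 13.99 (both also named after their values were seen). Their groups overlapped over most of their range. The S100a5-low libraries carried more immediate early transcript than the S100a5-high libraries, by a median of 1.86, with 16 of 27 members above all S100a5-high libraries (5.99% of all genes were). Markers of other cell types were also higher there, neutrophil genes by a median of 7.07, microvillar genes by 2.44 and monocyte and macrophage genes by 1.56, and their part in the immediate early values was not tested.

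**Figure D2:**
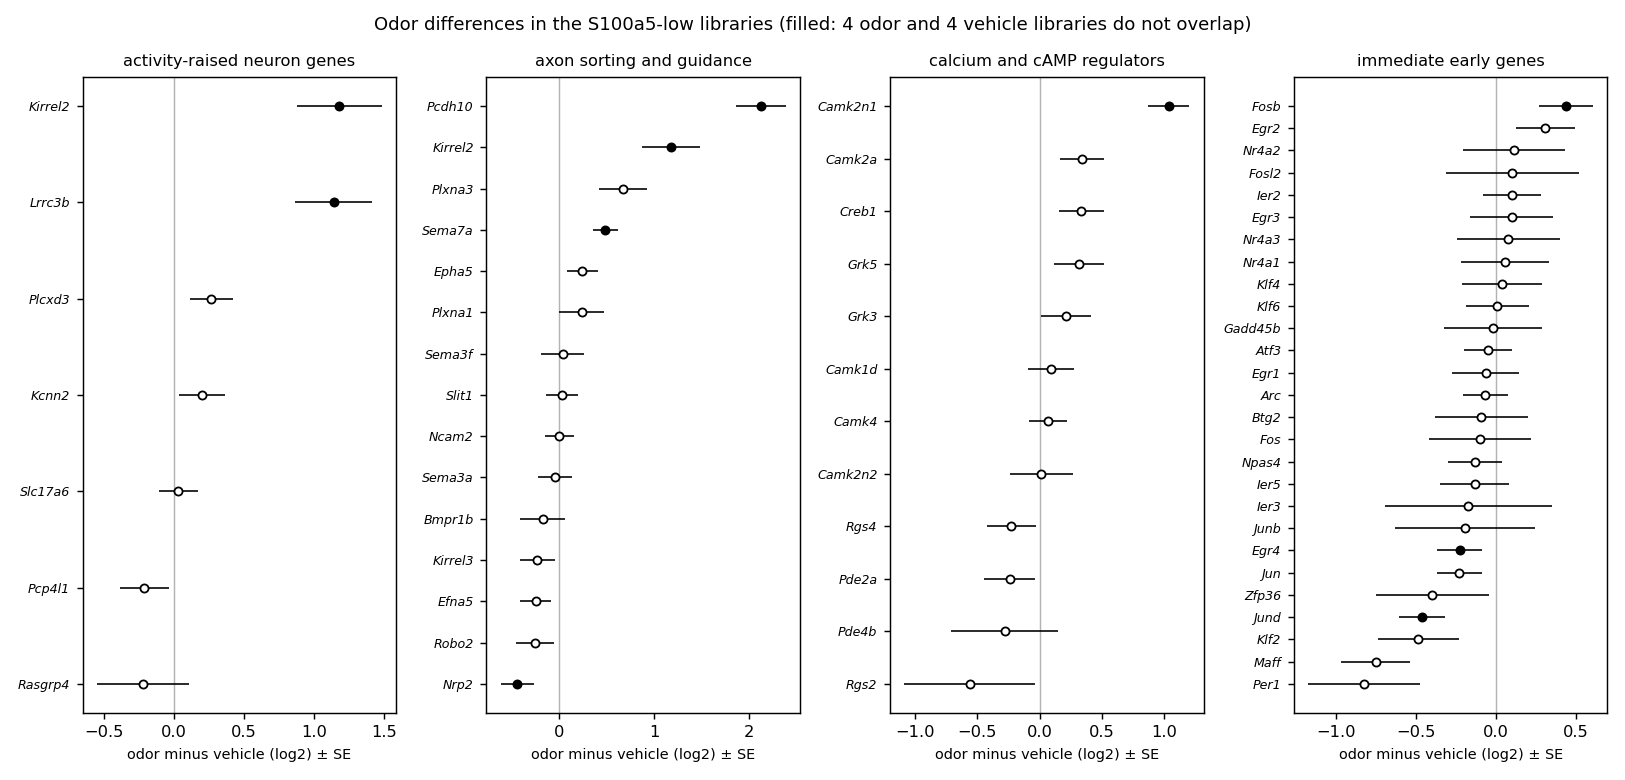
Difference odor minus vehicle (log2, ± SE) in the S100a5-low libraries for the members of 4 gene lists, S100a5 left out, filled where the 4 odor and 4 vehicle libraries do not overlap. Pcdh10 (2.12), Kirrel2 (1.18), Lrrc3b (1.14) and Camk2n1 (1.04) lie to the right of the other members, and immediate early genes lie on both sides of 0.

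Odorant receptors are the readout the assay was built for. Among 1095 receptor genes (1081 odorant and 14 trace amine-associated), 0 passed on 8 libraries and 1, Olfr221, passed on 16. Odor libraries lay above all vehicle libraries for 9 receptors (0.822%, against 1.76% of all genes) and below for 14 (1.28%, against 1.84%), so neither share was above the background. The median difference over receptors was -0.01 (0.03 over the odorant receptors without vehicle pool 3), and the 5th to 95th percentiles ran from -0.564 to 0.530, wider than over all genes. Receptor genes include near-identical copies, so a probe set can pick up a relative of the gene it is listed for.

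Olfr221 was 8.05, 9.03, 7.79 and 9.38 in odor pools 1 to 4 and 10.80, 11.31, 11.13 and 9.69 in vehicle pools 1 to 4. Odor pool 4 and vehicle pool 4 came closest, 0.30 apart, and the other libraries were well separated. The adjusted p (limma) was 0.605 on 8 libraries and 0.0476 on 16 (0.0249 to 0.9999 over its alternatives); it passed in 1 of 8 fits of the 16-library model that left out 1 pool, that without vehicle pool 4. The S100a5-high libraries of the same mice went the other way, with 12.78, 13.18, 12.77 and 12.78 after odor and 9.55, 10.32, 10.08 and 10.01 in vehicle, a difference of 2.89 ± 0.19 (adjusted p = 0.000135, limma). Within a pool, S100a5-low minus S100a5-high was -4.73, -4.15, -4.98 and -3.40 in odor pools 1 to 4 and 1.26, 0.98, 1.04 and -0.32 in the vehicle pools. In odor pools the transcript was thus far lower in the S100a5-low library of each pair, and in vehicle pools it was about level or higher there. The difference of these odor effects was -5.06 ± 0.41 (adjusted p = 0.00224, limma), and Olfr221 passed in each of 8 fits that left out 1 pool.

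In that per-pool test 2 of 19505 genes passed (0.0103%), and both were receptors, Olfr221 and Olfr170. The values of the 4 odor pools did not overlap those of the 4 vehicle pools for 422 genes (2.16%), with odor pools lower for 217 (1.11%) and higher for 205 (1.05%). Olfr170 was 9.96, 10.09, 10.51 and 9.83 after odor and 10.68, 10.76, 10.83 and 11.51 in vehicle, a difference of -0.85 ± 0.220 in the S100a5-low libraries (adjusted p = 0.741, limma). Its odor libraries lay below all vehicle libraries. The S100a5-high libraries differed by 1.18, and the difference of odor effects was -2.02 ± 0.22 (adjusted p = 0.0183, limma). With the pool number as a replicate block, 1 gene passed, Olfr221 (adjusted p = 0.0376), and Olfr170 did not (0.14). Olfr170 also passed in only 1 of 8 fits that left out 1 pool, that without vehicle pool 1 (adjusted p 0.0111 to 0.135 over the 8), and without the label-crossed vehicle pool 3 its adjusted p was 0.116.

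Olfr937 was 6.91, 7.42, 7.21 and 6.67 after odor and 7.90, 7.87, 9.39 and 8.03 in vehicle, a difference of -1.25 ± 0.326 in the S100a5-low libraries. Vehicle pool 3 stood well above its group, and without it the difference was -0.88. The difference of odor effects was -2.33 ± 0.30 and missed the threshold (adjusted p = 0.0718, limma). Olfr286 overlapped in the S100a5-low libraries (difference -0.73 ± 0.334), and its difference of odor effects was -1.19 ± 0.18 (adjusted p = 0.253, limma). Across the receptor list, 3 genes lay lower after odor in the S100a5-low and higher in the S100a5-high libraries without overlap in either, namely Olfr170, Olfr221 and Olfr937, and 0 showed the opposite pair of directions. Over all 19505 genes, 5 had this pair of directions, the other 2 being Erbb4 and Prss44 (named after their values were seen), and 0 the opposite.

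The nearest receptor genes on the chromosome did not reach the size of these values. The 4 nearest measured receptors of Olfr221 in RefSeq gene order had odor differences between -0.48 and 0.12 in the S100a5-low libraries, those of Olfr170 between -0.35 and 0.05, and those of Olfr937 between -0.22 and 0.19. Their differences of odor effects lay between -0.969 and 0.485 for Olfr221, -0.591 and -0.386 for Olfr170, and -0.470 and 0.612 for Olfr937. The 4 neighbours of Olfr170 thus had its negative sign, against a median of 0.06 over the odorant receptors.

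**Figure D3:**
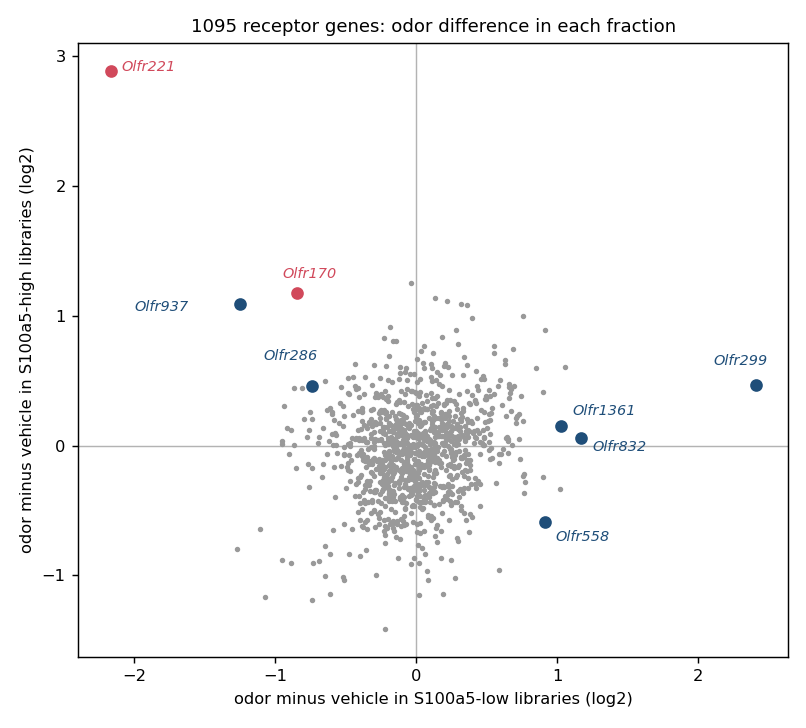
Odor minus vehicle difference (log2) of 1095 receptor genes in the S100a5-low libraries (x axis) and the S100a5-high libraries (y axis), 1 point per gene; red marks the 2 genes that passed the per-pool test, blue other receptors named in the text. Olfr221 lies at -2.17 and 2.89, apart from the cloud, and Olfr170 and Olfr937 lie in the same upper left part of the plot.

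Other receptors with small unadjusted p-values in the S100a5-low libraries did not pass. Olfr832, higher after odor by 1.17 ± 0.227, was 4.84, 4.60, 4.71 and 5.34 against 3.55, 3.75, 4.23 and 3.31, all below the negative control median of 5.46. Olfr1361 was 12.10, 12.48, 12.43 and 12.34 after odor and 10.90, 11.06, 11.84 and 11.44 in vehicle, a difference of 1.03 ± 0.210. Its 4 odor libraries lay within 0.386 of each other, above a wider vehicle group.
Olfr558 was 6.21, 6.41, 6.31 and 6.40 after odor and 5.06, 5.22, 5.24 and 6.15 in vehicle, a difference of 0.91 ± 0.225. Vehicle pool 4 stood apart from the other vehicle libraries and just below the lowest odor library. Olfr299 had the largest positive difference of any receptor, 2.41 ± 0.606, with odor libraries at 7.61, 9.74, 9.12 and 10.71 and vehicle libraries at 6.60, 5.75, 7.70 and 7.48. Odor pool 1 lay inside the vehicle range, and Olfr299 passed in the 16-library model without odor pool 1. Olfr963 (0.76 ± 0.252) did not overlap between groups, and Olfr556 (0.63 ± 0.208), Olfr790 (0.76 ± 0.256) and Olfr1052 (0.77 ± 0.259) did.

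On the lower side, Olfr1161 was 5.66, 6.36, 6.81 and 5.40 after odor and 7.28, 6.96, 7.14 and 7.92 in vehicle, a difference of -1.27 ± 0.315. Olfr971 differed by -1.07 ± 0.250, Olfr212 by -0.95 ± 0.213 and Olfr605 by -0.69 ± 0.175, each without overlap. Olfr304 (-0.87 ± 0.243) overlapped. For Olfr971 and Olfr1161 the S100a5-high libraries gave negative differences as well (-1.17 and -0.80), unlike Olfr221. The test of low against high gave 0.10 ± 0.35 for Olfr971 and -0.47 ± 0.40 for Olfr1161, neither past the threshold. Adjusted p-values of all receptors in these paragraphs lay between 0.605 and 0.816 in the odor comparison on 8 libraries (limma), apart from Olfr286 (0.844).

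The remaining genes with the smallest p-values in the odor comparison belong to no fixed list. Higher after odor without overlap were Socs5, a suppressor of cytokine signalling (0.94 ± 0.190), Ifit1bl2, of the interferon-induced tetratricopeptide family (0.93 ± 0.181), Ciao1, an iron-sulfur cluster assembly factor (0.92 ± 0.170), Ifrd1, a transcriptional coregulator (0.89 ± 0.171), B3galt6, a galactosyltransferase of proteoglycan synthesis (0.85 ± 0.152), and Kcnh8, a voltage-gated potassium channel (0.79 ± 0.144). Ciao1 was 11.22, 11.57, 11.63 and 11.32 after odor and 10.44, 10.23, 10.81 and 10.58 in vehicle, with 0.41 between the groups. Ifit1bl2 was 7.10, 7.38, 7.31 and 6.92 against 6.04, 6.19, 6.66 and 6.10. Vehicle pool 3 was the highest vehicle library for both, and Ifit1bl2 passed in the 16-library model without that pool.

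Lower after odor without overlap were Slc43a1, an amino acid transporter (-1.07 ± 0.203), Cdt1, a DNA replication licensing factor (-0.95 ± 0.206), Sox4, a transcription factor of the SRY-box family (-0.84 ± 0.158), Uts2b, a urotensin-related peptide (-0.81 ± 0.164), Cenph, a kinetochore protein (-0.81 ± 0.168), Sh2d3c, an SH2 domain adaptor (-0.79 ± 0.160), and Ust, a sulfotransferase (-0.75 ± 0.159). Cdt1 was 7.48, 7.37, 7.16 and 6.85 after odor and 8.37, 8.41, 7.67 and 8.2 in vehicle. Slc43a1 was 6.77, 6.36, 6.61 and 6.17 against 7.92, 7.25, 7.27 and 7.74. The vehicle libraries of both were higher in every pool, and Uts2b and Ust lay below the negative control median in all 8 libraries. None of these genes passed on 8 or on 16 libraries; their adjusted p-values on 8 libraries lay between 0.605 and 0.632 (limma).

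Markers of blood cells were higher in the S100a5-low than in the S100a5-high libraries and varied widely among pools. The mean of 14 neutrophil genes was 12.996, 12.47, 11.91 and 9.90 in odor pools 1 to 4 and 13.57, 12.43, 10.76 and 12.45 in vehicle pools 1 to 4, against 4.57 to 6.59 in the S100a5-high libraries. Odor pool 4 and vehicle pool 3 were the lowest of their groups. Of the 14 genes 13 had lower means after odor (10236 of 19505 over all genes), the median difference was -0.45 (-0.95 without vehicle pool 3), and 0 were without overlap between treatments. S100a9, an antimicrobial calcium-binding protein of neutrophils, was 14.70, 14.35, 13.19 and 11.40 after odor and 14.94, 14.84, 12.34 and 14.50 in vehicle, a difference of -0.74 ± 0.736 (-1.35 without vehicle pool 3). Chil3, a chitinase-like granule protein, differed by -0.97 ± 0.709. Both sets of libraries overlapped widely, and 14 of 14 neutrophil genes lay above all S100a5-high libraries (5.99% of all genes did). The part of this pool-to-pool spread in the gene differences above was not tested.

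The other blood lists had the same low libraries. Monocyte and macrophage genes (13 measured) averaged 9.13, 9.18, 8.32 and 7.83 after odor and 9.29, 8.98, 8.15 and 8.79 in vehicle, with a median difference of -0.15 (-0.39 without vehicle pool 3). Ccr2, a chemokine receptor of monocytes, differed by -0.88 ± 0.499 with overlap. Lymphocyte genes (9 measured) had a median difference of -0.17, and red blood cell genes (2 measured) of -0.87, with Slc4a1, the anion exchanger of red cells, at 11.92, 10.73, 10.85 and 9.90 after odor and 12.84, 11.53, 10.99 and 11.83 in vehicle. No member of these 3 lists was without overlap between treatments.

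Cells of the epithelium itself showed no member without overlap in 5 lists. Sustentacular genes (10 measured), of the supporting cells, had a median difference of 0.13 that turned to -0.02 without vehicle pool 3, with Sox2 at 0.61 ± 0.325 and Krt8 at 0.42 ± 0.292. Bowman gland genes (8 measured) had 0.32, led by the secreted protein gene Bpifb9b, which was 13.89, 11.89, 9.50 and 11.84 after odor and 11.57, 10.47, 8.98 and 10.06 in vehicle. Pool 3 was the lowest and pool 1 the highest for Bpifb9b in both treatments. Microvillar tuft-like and ionocyte-like genes (10 measured) had a median of 0.24, with Trpm5, the channel of tuft-like cells, at 0.38 ± 0.257 and Gfi1b, a transcription factor, at -0.70 ± 0.267. Globose basal and progenitor genes (9 measured) had a median of 0.00 (-0.07 without vehicle pool 3), with Mki67, a proliferation marker, at -0.86 ± 0.530, and horizontal basal genes (6 measured) also 0.00 (0.05 without it). Immature neuron genes (12 measured) had a median of -0.10 (-0.03 without vehicle pool 3) and 1 member lower without overlap, Stmn4, a microtubule-destabilising stathmin (-0.53 ± 0.184), and mature neuron genes (14 measured) had -0.03 (-0.02 without it).

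**Figure D4:**
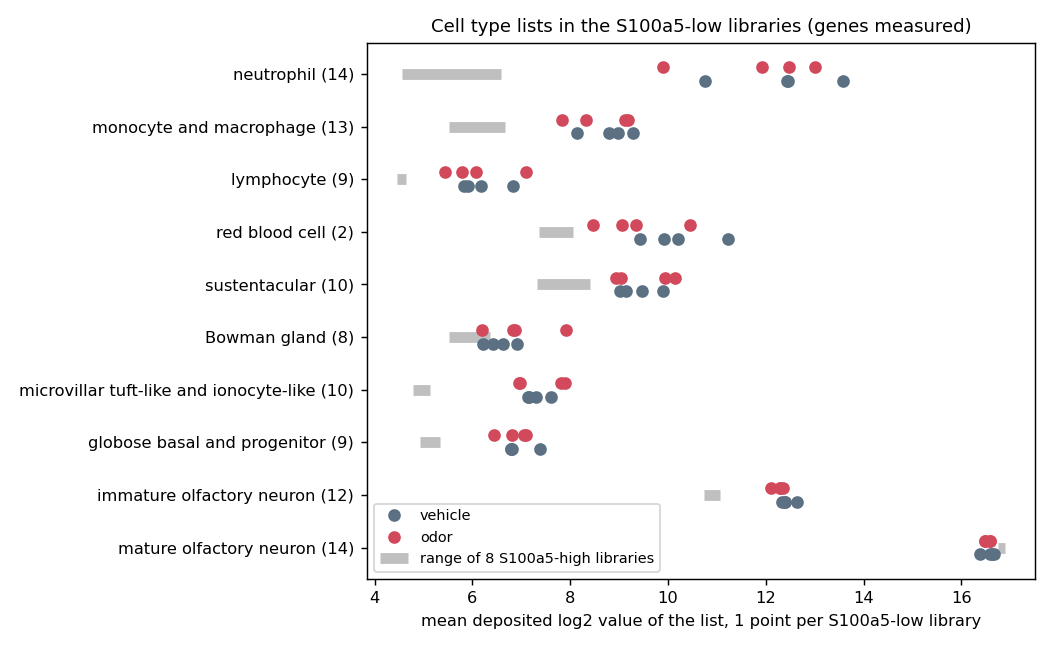
Mean deposited log2 value of 10 cell type lists in each S100a5-low library, odor in red and vehicle in grey-blue, with the range of the 8 S100a5-high libraries as a grey bar; the number of genes measured stands in brackets. Odor and vehicle points overlap in each list, and neutrophil means (9.90 to 13.57) spread the most. For immature neuron genes the overlap is minimal, with odor means up to 12.341 and vehicle means from 12.339.

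Lists of neuronal function had median differences between -0.06 and 0.14. Olfactory transduction genes (16 measured) had a median difference of -0.06, with Cngb1, a channel subunit, at -0.53 ± 0.276 (-0.35 without vehicle pool 3) and Pde4a, a cAMP phosphodiesterase, at 0.34 ± 0.189. Genes of receptor choice, trafficking and the unfolded protein response (13 measured) had -0.03 (-0.01 without that pool), with Reep1, a receptor transport protein, at 0.33 ± 0.190. Synaptic vesicle genes (11 measured) had 0.01 (0.03 without it), and Sv2a, a vesicle glycoprotein, was lower without overlap at -0.29 ± 0.153. Ciliary transport genes (11 measured) had 0.14, with Ift88, of the intraflagellar transport complex, at 0.31 ± 0.150. MAP kinase feedback genes (11 measured) had 0.11, with Spred1 at 0.37 ± 0.204 and Spry1 at -0.35 ± 0.197.
Guanylyl cyclase D necklace neuron genes (9 measured) had -0.03, and -0.34 without vehicle pool 3, with Ms4a4b at -0.67 ± 0.419. None of these members passed.

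Among housekeeping and metabolic lists, cytosolic ribosomal protein genes (61 measured) had a median of -0.07, against -0.30 in the S100a5-high libraries. Without vehicle pool 3 the S100a5-low median was -0.22 (all genes 0.00). Rps4l was at -0.55 ± 0.237. Of the 61, 48 had lower means after odor (10236 of 19505 over all genes), and 0 were without overlap between treatments. The list mean was 12.36, 12.2, 11.62 and 12.08 in odor pools 1 to 4 and 12.06, 12.51, 11.72 and 12.33 in vehicle pools 1 to 4. These groups overlapped, and the members share the same 8 libraries, so 48 of 61 are not separate outcomes. Oxidative phosphorylation genes (89 measured) had 0.06 (0.03 without that pool), with the assembly factor Ndufaf8 at 0.54 ± 0.186, Cox6b2 at -0.37 ± 0.176 and 1 member lower without overlap, Ndufa4l2 (-0.27 ± 0.150, named after its values were seen). Xenobiotic and ester metabolism genes (17 measured), a list fitted to an ester odorant, had 0.04, which turned to -0.06 without vehicle pool 3, with the carboxylesterase Ces2g at -0.52 ± 0.257. Apoptosis and p53 genes (8 measured) had -0.13, with Bcl2, an inhibitor of apoptosis, at 0.39 ± 0.175. Heat shock genes (7 measured) had -0.02 (-0.11 without vehicle pool 3), with Hsp90aa1 at -0.31 ± 0.179.

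Respiratory ciliated genes (6 measured), listed as markers of neighbouring respiratory epithelium, had a median of 0.26. The axonemal genes Dnaic1 and Rsph1 were at 0.64 ± 0.252 and 0.38 ± 0.174. Unlike the blood cell lists, 0 of 6 had a higher mean in the S100a5-low than in the S100a5-high libraries (median -0.48). Which cells these transcripts came from was not tested. Ensheathing glia (6 measured), endothelial (6 measured) and fibroblast (5 measured) lists had median odor differences of 0.03 (-0.01 without vehicle pool 3), -0.16 and -0.12. Trace amine-associated receptors (14 measured) had -0.10, with Taar8b at -0.41 ± 0.214. Vomeronasal receptors (319 measured), which belong to another sensory organ, had 0.01. Of the 319, 6 were higher without overlap (1.76% of all genes), among them Vmn2r121 (0.60 ± 0.146). Lower without overlap were 4 (1.84% of all genes), Vmn1r219 (-0.89 ± 0.232), Vmn1r169, Vmn2r122 and Vmn2r62. Neither count stood out from these shares. Mean levels of the vomeronasal receptors, 3.74 to 3.88 in the 8 libraries, lay below the negative control median. Of 33 lists, 24 had no member without overlap between treatments.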

How the data were processed

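The authors deposited 1 table of log2 values for the 16 arrays, and the submitters' processing notes name Affymetrix Expression Console as the tool; its version, the summarization and the build of the genome are unknown here. Values ran from 1.69 to 19.4, above the limit of 16 for a 16-bit scanner, so differences are log2 differences, not folds. Of 28846 probe sets, 6640 were controls, 19572 had 1 gene symbol, 0 several and 2634 none; the probe set with the highest mean was kept for each of 19505 genes (55 had several). Negative controls had a median of 5.46 (95th percentile 9.79), and gene medians of the S100a5-low libraries were 6.96 to 7.09.

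Odor and vehicle were compared in R 4.3.3 by limma 3.58.1 (linear fits with moderated variance, two-sided, no covariates, Benjamini-Hochberg over all genes, threshold 0.05; tested on simulated data), on the 8 libraries and on the difference S100a5-low minus S100a5-high of each pool. The members and lists were chosen with earlier results of these data known. Named genes were S100a5, Omp and Kirrel2, the 8 smallest p-values per direction among receptors and among other genes (fewer than 5 genes passed), 8 receptors by p in the per-pool test, and up to 3 members of each list; 54 loci without a name among p under 0.05 were left out. The main tests did not pair the treatments by pool number, and only the replicate block did. Same-numbered deviations correlated at 0.374, 0.117, 0.177 and 0.155, each above the cut-off of 0.1, and other pairs lay between -0.502 and 0.297. Odor pool 4 with vehicle pool 3 (0.297) and odor pool 2 with vehicle pool 1 (0.200) exceeded all same-numbered values but the highest. These correlations thus cannot decide whether the numbers pair the treatments. Y-linked genes were high in pools 1 and 3 and low in pools 2 and 4 of both treatments, so same-numbered pools shared this trait. The sex of the mice in each pool is not given in the sources used here. What else the numbers share is not given there either. The fit on the 8 libraries held no term for sex or pool number. Alternatives were other scalings, a filter on low values, array weights, trend and robust variance, the replicate block, all 16 arrays with and without the pool as a random block, the titles as labelled, and each replicate left out. Promoters are RefSeq's (GRCm38.p6).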

Additional observations from a re-analysis of the deposited data

Results flagged for a closer look

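The odor effect differed between the fractions by the per-pool test (limma) for Olfr170 (-2.02) and Olfr221 (-5.06), S100a5-low minus S100a5-high.

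In 18 of 224 groups of 4 S100a5-low libraries, 1 library stood apart from the other 3 by Dixon's criterion (gap over range above 0.829), where chance gives about 1 in 20 groups. Among odor libraries, pool 1 was lowest for Ifrd1 (9.58, others 10.07 to 10.14) and Creb1 (10.9, others from 11.10), pool 2 for Sema7a (14.0, others from 14.26) and Egr4 (4.21, others from 4.46), and pool 3 for Sh2d3c (9.23, others from 9.60), Hsp90aa1 (15.5, others from 16.02) and Sv2a (10.3, others from 10.65). Among vehicle libraries, pool 4 was highest for Olfr558 (6.15, others up to 5.24), pool 3 highest for Olfr937 (9.39, others up to 8.03) and lowest for S100a9 (12.3, others from 14.50), and pool 1 lowest for Rps4l (7.65, others from 8.60).

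Of list means, vehicle pool 1 was highest for globose basal and progenitor genes (7.39, others up to 6.81) and endothelial genes (4.22, others up to 3.86) and lowest for respiratory ciliated genes (6.47, others from 6.79), and vehicle pool 2 was lowest for MAP kinase feedback genes (8.88, others from 8.98). Odor pool 4 was lowest for calcium and cAMP regulators (7.35, others from 7.73) and highest for odorant receptors (8.998, others up to 8.66), and odor pool 3 was highest for vomeronasal receptors (3.85, others up to 3.76).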

How the results depend on the processing

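On the 8 libraries 0 genes passed under each of the other scalings, the filter, array weights, trend and robust variance, the replicate block, the titles as labelled and each of 8 fits without 1 pool; counts at an unadjusted p under 0.05 ran from 739 to 1540. All 16 arrays in 1 model gave 4 genes and 1 receptor, as did the pool as a random block (4 and 1). Leaving out 1 pool of that model, an alternative chosen after seeing the data, gave 0 to 7 genes and 0 to 1 receptors: 7 without vehicle pool 3, 2 without odor pool 1, odor pool 2 or vehicle pool 4, 1 without vehicle pool 2 and 0 without odor pool 3, odor pool 4 or vehicle pool 1. In the per-pool test 2 genes, both receptors, passed; the replicate block gave 1 gene and 1 receptor, the titles as labelled 0 and 0, and leaving out 1 pool 1 to 2 of each. The replicate block changed no other call.

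With the titles as labelled, which puts the other library of vehicle pool 3 into the comparison, the sign turned for Olfr556 (-0.0556), Olfr1052 (-0.0668), Mki67 (0.12), S100a9 (0.917), Chil3 (1.48), Ccr2 (0.27), Fos (0.925) and Egr1 (1.22). Egr1 also turned with array weights (0.0244), and without 1 pool Fos ran from -0.319 to 0.168 and Egr1 from -0.18 to 0.101, positive without odor pool 4 (0.168 and 0.101) or vehicle pool 1 (0.0858 and 0.019). Of 77 named genes under 25 settings, 17 values of 8 genes turned sign and 18 values of 7 genes passed in addition. The cause was not tested. Signal limits genes below the negative control median. Among those without overlap, Olfr832, Uts2b, Ust, Egr4, Ndufa4l2, Vmn2r121 and Vmn1r219 were below it in all 8 libraries, and Kcnh8 (vehicle) and Olfr971 (odor) in all 4 of 1 group. Olfr558, Cenph, Sox4 and Olfr1161 were below it in 1 to 3 libraries, and Arid5a lay close above it. Genes above the median are not thereby clear of background, since the negative controls had a 95th percentile of 9.79. Camk2n1 and Arid5a lay below 9.79 in all 8 libraries, as did Pcdh10 in the vehicle and Olfr221 in the odor libraries.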

Other observations

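Y-linked genes followed the pool numbers in both treatments (chosen after the values were seen). Eif2s3y, a Y-linked translation factor gene, was 6.49, 2.71, 9.69 and 2.65 in the S100a5-low libraries of odor pools 1 to 4 and 8.26, 2.69, 9.12 and 3.16 in those of vehicle pools 1 to 4, so pools 1 and 3 were high and pools 2 and 4 low in each treatment. Uty gave the same order, with 6.83, 3.13, 9.77 and 3.58 after odor and 8.32, 3.29, 9.73 and 3.79 in vehicle. In odor pool 1 the S100a5-low library lay below pool 3 for both genes, and its S100a5-high partner held 5.55 for Eif2s3y and 9.04 for Uty.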
